A study of Mus musculus with 6 samples.

Results

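The circadian clock genes followed here are the 10 transcripts Arntl, Clock, Npas2, Per1, Per2, Per3, Cry1, Nr1d1, Nr1d2 and Dbp, taken by gene symbol from the 23282 rows of the deposited count tables. Each symbol was on a single row, and all 10 passed the filter on low counts, which kept 12995 genes. Their level was measured in interscapular brown adipose tissue (BAT) of 3 wild-type (WT) and 3 Letmd1 knockout (KO) mice, all male C57BL/6N animals 5 weeks old. The Letmd1 KO mice were homozygous for a null allele that came from a single embryonic stem cell clone. This allele carried a reporter and selection cassette in an intron, so Letmd1 was disrupted in every cell, not in brown adipocytes alone. LETMD1 is a protein of the mitochondrial matrix that the study examined for its part in heat production by BAT. The housing had a cycle of light and dark, and the hour at which each mouse was killed is not given in the sources used here.

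The mammalian clock is a loop of transcription and repression that runs in nearly every cell. ARNTL (also called BMAL1) pairs with CLOCK or its relative NPAS2 and drives genes with E-boxes in their control regions, among them those of the PER and CRY repressors, of the nuclear receptors NR1D1 and NR1D2 (REV-ERB alpha and beta) and of the output factor DBP. The PER and CRY proteins then block the activators, while NR1D1 and NR1D2 repress Arntl, Npas2 and Clock, so that in tissues outside the brain Arntl and Npas2 transcripts are high when those of Dbp, Nr1d1, Nr1d2 and the Per genes are low. In BAT, NR1D1 is known as a repressor of the thermogenic program, and the sympathetic nerve, feeding and glucocorticoids all act on the local clock.

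Short windows before the start sites were searched for the letters read by the loop itself. In the 250 bases upstream of the RefSeq start on GRCm38.p6, 9 members had a window, and Per2 had none. Some windows reached into exons of their own gene, by 159 bases for Dbp. The E-box CACGTG stood in the window of Cry1, in 1 of the 2 windows of Per1 and in 6.86% of all 27025 genes with a window. A gene was counted when any of its windows held the letters. The related E'-box CACGTT stood on the opposite strand in those of Cry1 and Nr1d1, where it is printed as AACGTG, and in 4.50% of genes, counting both strands. The E-box reads the same on both strands, and the 2 motifs share the letters CACGT but mark no position in common. The D-box TTATGTAA, bound by DBP and its relatives (TTACGTAA was searched as well), stood at 2 places before Per3, while either form was found in 1.10% of genes. The core of the element bound by NR1D1 and NR1D2 (TAGGTCA or TGGGTCA, in 6.15% of genes) and the cyclic AMP element TGACGTCA (in 1.77% of genes) were in none of the members' windows. These are matches of letters, and sites outside this window were not searched, so a window without a match does not show that a gene lacks the element. Ciart, a clock repressor outside the 10 members, held 3 E-boxes in its window and is described further on. Its window and those with a match in 4 members are given 5′ to 3′ on the gene's strand, with matches in capitals. They lie at chr11:69098699-69098948 for Per1 (plus strand, before a start that lies inside the gene as GENCODE draws it), chr10:85185055-85185304 for Cry1 (minus strand), chr11:98775378-98775627 for Nr1d1 (minus strand), chr4:151044666-151044915 for Per3 (minus strand) and chr3:95882229-95882478 for Ciart (minus strand).
Per1: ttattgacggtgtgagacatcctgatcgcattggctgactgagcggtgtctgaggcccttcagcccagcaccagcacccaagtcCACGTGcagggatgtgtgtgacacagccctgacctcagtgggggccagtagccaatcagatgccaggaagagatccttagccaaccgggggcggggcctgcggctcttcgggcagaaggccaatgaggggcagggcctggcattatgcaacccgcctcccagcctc
Cry1: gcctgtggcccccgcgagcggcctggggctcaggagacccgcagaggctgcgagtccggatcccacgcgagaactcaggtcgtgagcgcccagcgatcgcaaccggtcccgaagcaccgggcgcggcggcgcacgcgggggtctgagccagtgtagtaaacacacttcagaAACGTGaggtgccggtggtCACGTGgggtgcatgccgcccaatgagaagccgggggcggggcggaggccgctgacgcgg
Nr1d1: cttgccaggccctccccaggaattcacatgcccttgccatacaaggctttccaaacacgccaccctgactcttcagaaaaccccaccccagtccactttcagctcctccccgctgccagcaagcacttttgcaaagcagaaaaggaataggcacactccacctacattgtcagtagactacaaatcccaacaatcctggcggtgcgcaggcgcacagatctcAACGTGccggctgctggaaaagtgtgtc
Per3: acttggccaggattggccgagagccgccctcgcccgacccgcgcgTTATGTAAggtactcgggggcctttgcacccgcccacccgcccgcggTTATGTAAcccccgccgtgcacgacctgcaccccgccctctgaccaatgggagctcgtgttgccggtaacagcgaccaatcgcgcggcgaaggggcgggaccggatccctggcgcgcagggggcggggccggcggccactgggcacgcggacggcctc
Ciart: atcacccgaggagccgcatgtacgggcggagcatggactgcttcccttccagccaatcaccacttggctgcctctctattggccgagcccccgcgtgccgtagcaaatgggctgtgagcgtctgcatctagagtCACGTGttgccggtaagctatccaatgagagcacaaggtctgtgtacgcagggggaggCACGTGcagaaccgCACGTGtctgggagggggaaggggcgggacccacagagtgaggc

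QuantSeq libraries hold reads from the 3′ ends of polyadenylated transcripts, so that a level is not divided by transcript length. Totals lay between 6669577 and 14574273 counts per mouse, and levels are given as CPM, counts divided by the library size and its TMM factor, on which 3 counts equal 0.176 to 0.397 CPM. Letmd1 itself had between 5266 and 6490 counts in WT, and 0, 0 and 1 in Letmd1 KO BAT. The TMM factors were 0.852 to 0.886 in WT and 1.13 to 1.17 in KO mice, so with library size alone the log2 fold change of the median gene moves from 0.033 to 0.45. Of the 12995 genes tested, 46.0% passed a Benjamini-Hochberg adjusted p of 0.05 in the quasi-likelihood test of edgeR, 22.3% lower and 23.7% higher in Letmd1 KO BAT. That was 2896 lower and 3082 higher genes, against 1368 lower and 5899 higher with library size alone. The 8 brown adipocyte markers summed to between 39282 and 44762 CPM in WT and between 11792 and 15695 CPM in KO mice, with 7 lower. Fabp4 alone made up 25674 to 30186 CPM of these sums in WT and 8528 to 12641 CPM in KO mice. All 12 macrophage markers were higher (summed 182 to 257 CPM in WT and 1501 to 3652 CPM in KO mice), as were 6 of 6 fibroblast markers (2143 to 2843 against 5852 to 10160 CPM) and 4 of 5 tested nerve and Schwann cell markers (223 to 271 against 293 to 456 CPM), with Th at or under 3 counts in every mouse. Of the endothelial markers 4 of 8 were lower (644 to 749 against 414 to 528 CPM), 2 of 13 muscle markers were higher (85.5 to 521 against 371 to 1363 CPM; 0 higher without WT replicate 3), and the 5 erythroid markers summed to overlapping levels (9963 to 18518 against 10002 to 13670 CPM). The part of these cell types in the results on clock genes was not tested.

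Among the 10 clock genes, Dbp, Nr1d1, Nr1d2 and Per3 were lower in Letmd1 KO BAT and none was higher, in a comparison in which 22.3% of all genes tested were lower. The 4 calls of 10 are no larger a share than the 46.0% of all genes tested that were called in either direction. At an unadjusted p under 0.05 the count was 5, the fifth being Arntl, which was higher, and 53.1% of all genes tested passed that limit. The share of all genes tested that passed it with a higher level was 27.6%. DESeq2 also called 4 lower and 0 higher, where it called 2905 of 12995 genes lower and 2946 higher. The WT mice did not form a uniform group for these genes. Their replicate 3 was the farthest from the WT median in 10 of 10 members, against 41.1% of all genes tested. Without WT replicate 3, 5 members were lower and 2 were higher, where 21.4% of all genes were lower and 22.4% higher. This mouse is singled out by its levels of these same genes, so calls made without it are not separate support. In whole tissue, a smaller share of the cells that express a gene and less RNA of it per cell cannot be told apart.

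**Figure D1:**
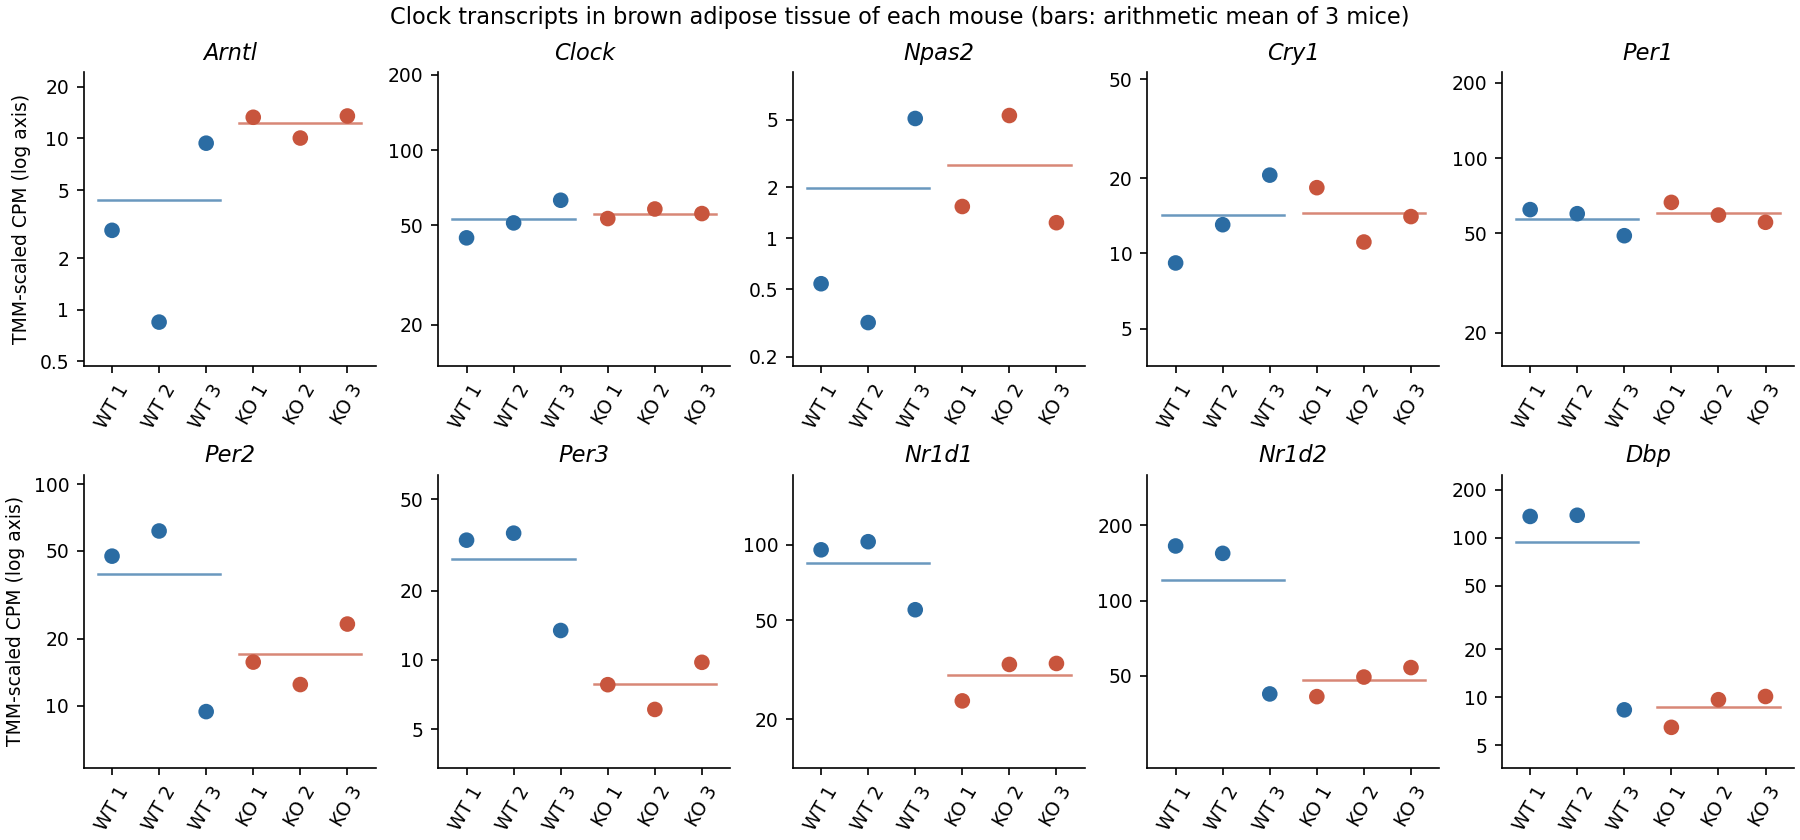
Each panel plots the TMM-scaled CPM of a clock gene on a log axis in the 3 WT mice (blue) and the 3 Letmd1 KO mice (red), with a bar at the arithmetic mean of the genotype. For Dbp, WT replicates 1 and 2 lie at 136 and 138 CPM, and WT replicate 3 at 8.34 lies among the KO mice.

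Dbp, a PAR bZip transcription factor that carries the rhythm of the clock to its output genes, had 136, 138 and 8.34 CPM in WT replicates 1, 2 and 3 and 6.48, 9.66 and 10.1 CPM in Letmd1 KO replicates 1, 2 and 3. WT replicates 1 and 2 were more than 10 times above each of the other 4 mice, and WT replicate 3 was inside the range of the KO mice, so the genotypes overlapped. In edgeR the difference was -3.42 on the log2 scale (standard error 0.79, adjusted p = 0.00664), and the mean CPM was 10.7-fold lower (94.0 ± 74.2 in WT and 8.75 ± 1.98 in KO mice, SD, n = 3 each). Without WT replicate 3 the log2 value was -3.97 (standard error 0.18, adjusted p = 3.33e-06), and it passed the threshold in all 13 other settings tried, with a log2 fold change between -4.05 and -2.77.

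The last 737 bases of Dbp (chromosome 7, 45705088 to 45710203, plus strand) overlap the end of Sphk2, a sphingosine kinase gene on the opposite strand, in the GENCODE annotation of GRCm38. The sources used here do not say whether strand entered the counts, so reads of these genes cannot be told apart in that stretch. Sphk2 had 161, 163 and 40.7 CPM in the WT mice and 40.1, 42.3 and 41.6 CPM in the KO mice, so that WT replicates 1 and 2 were high and the other 4 mice low, as for Dbp. It was lower by edgeR's test (-1.56 on the log2 scale, standard error 0.41, adjusted p = 0.0130). Nr1d1 shares 1075 bases in the same tail-to-tail way with Thra, the gene of thyroid hormone receptor alpha, which had 64.9, 57.6 and 94.7 CPM in WT and 61.3, 54.5 and 59.5 CPM in KO mice (adjusted p = 0.188), so here the neighbour did not take the order of the clock gene. Per3 lies on the same strand inside Camta1, which had between 20.6 and 21.7 CPM in WT and between 13.9 and 16.3 CPM in KO mice (adjusted p = 0.0168).

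The repressor Nr1d1 had 95.6, 103 and 55.0 CPM in WT replicates 1 to 3 and 23.7, 33.2 and 33.5 CPM in the KO mice. WT replicate 3 had the lowest WT level but remained above every KO mouse. In edgeR this was a difference of -1.49 on the log2 scale (standard error 0.24, adjusted p = 0.000880), with a mean CPM 2.80-fold lower, which passed the threshold in all 13 other settings, between -1.81 and -1.07. It was 3.32-fold lower without WT replicate 3. Nr1d1 lies on chromosome 11 from 98767932 to 98775333 on the minus strand.

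Its paralog Nr1d2, on chromosome 14 from 18204054 to 18239127 on the minus strand, had 165, 154 and 42.2 CPM in the WT mice and 41.2, 49.4 and 53.9 CPM in the KO mice. Here WT replicate 3 was inside the range of the KO mice. The edgeR estimate was -1.33 on the log2 scale (standard error 0.41, adjusted p = 0.0242). This call depended on the mice and the scaling: it was lost with library size alone (log2 fold change -0.91, adjusted p = 0.0806), under quantile normalization (-0.98, adjusted p = 0.0828), with a replicate block (-1.13, adjusted p = 0.0522) and without any mouse other than WT replicate 3, the adjusted p reaching 0.0911. Without WT replicate 3 the log2 fold change was -1.74 (adjusted p = 3.13e-05). WT replicate 3 thus lay above the KO mice for Nr1d1 and among them for Nr1d2, a difference between the genes that was not tested.

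Of the Period repressors, Per3 showed a lower level in the Letmd1 KO mice that did not overlap WT. It had 33.2, 35.6 and 13.4 CPM in WT and 7.80, 6.09 and 9.76 CPM in KO mice, which edgeR placed at -1.78 on the log2 scale (standard error 0.35, adjusted p = 0.00266). The call held in all 13 other settings, with values between -2.29 and -1.36. Per3 lies on chromosome 4 from 151003652 to 151044665 on the minus strand, and its window upstream is the one with the pair of D-boxes printed above.

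Per2, on chromosome 1 from 91415982 to 91459324 on the minus strand, had 47.3, 61.5 and 9.39 CPM in the WT mice and 15.7, 12.4 and 23.3 CPM in the KO mice. WT replicate 3 had the lowest level of all 6 mice, below each KO mouse. With all mice the log2 fold change of -1.19 (standard error 0.53) did not pass the threshold (adjusted p = 0.0960 from edgeR). It passed in 3 of 13 other settings: without WT replicate 3 (-1.65, standard error 0.24, adjusted p = 0.000751), with the muscle marker level as a covariate (-2.04, adjusted p = 0.0393) and with no filter (-1.19, adjusted p = 0.0497).

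Per1, a Period gene that cyclic AMP and glucocorticoids induce, had 62.2, 59.9 and 48.9 CPM in WT and 66.5, 59.2 and 55.3 CPM in KO mice. The genotypes overlapped and edgeR made no call (0.080 on the log2 scale, standard error 0.13, adjusted p = 0.652). The sign turned when WT replicate 3 was left out (-0.030). With library size alone the value was 0.50 (adjusted p = 0.0124), close to the shift of 0.45 that this scaling gave the median gene. Among the WT mice the highest Per1 level was 1.27 times the lowest, against 2.65 times for Per3 and 6.55 times for Per2. Per1 lies on chromosome 11 from 69095217 to 69109960 on the plus strand.

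Cry1, the partner of the PER proteins in repression (chromosome 10, 85131700 to 85185064, minus strand), had 9.16, 13.0 and 20.6 CPM in WT and 18.4, 11.1 and 14.1 CPM in KO mice. WT replicate 3 had the highest level of all 6 mice. The genotypes overlapped and the log2 fold change was 0.034 (standard error 0.30, adjusted p = 0.935 from edgeR), with a sign that changed under quantile normalization and when WT replicate 1, WT replicate 2 or Letmd1 KO replicate 1 was left out.

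Among the activators, Arntl (chromosome 7, 113207465 to 113314126, plus strand) had 2.91, 0.848 and 9.39 CPM in the WT mice, from 27, 8 and 72 counts, and 13.3, 10.1 and 13.5 CPM in the KO mice, from 121, 76 and 230 counts. Every KO mouse was above every WT mouse, and WT replicate 3 was the WT mouse closest to them. A difference of 1.53 on the log2 scale (standard error 0.60) missed the threshold (adjusted p = 0.0617 from edgeR). Without WT replicate 3 it was 2.70 (standard error 0.44, adjusted p = 0.00125), with library size alone 1.96 (adjusted p = 0.0176), with the muscle marker level as a covariate 3.42 (adjusted p = 0.0254), with the replicate block 1.84 (adjusted p = 0.0177), with no filter 1.53 (adjusted p = 0.0294), and DESeq2 gave an adjusted p of 0.166.

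Npas2 was close to the limit of these libraries, with 5, 3 and 39 counts in the WT mice and 14, 40 and 21 in the KO mice. On the CPM scale this was 0.539, 0.318 and 5.09 in WT and 1.54, 5.29 and 1.24 in KO mice, so WT replicate 3 and Letmd1 KO replicate 2 were high and the other 4 mice low. With all mice it differed by 0.43 on the log2 scale (standard error 0.94, adjusted p = 0.737 from edgeR), a value that lay between -0.48 and 2.54 when a mouse was left out. Only the removal of WT replicate 3 gave a call (adjusted p = 0.0377). Npas2 lies on chromosome 1 from 39193731 to 39363236 on the plus strand.

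Clock, whose transcript is known to cycle weakly in most tissues, had 44.5, 51.1 and 63.0 CPM in WT and 53.2, 58.1 and 55.7 CPM in KO mice, and the KO mice lay inside the range of the WT mice. By edgeR the difference was 0.075 on the log2 scale (standard error 0.14, adjusted p = 0.693), and 0.50 with library size alone (adjusted p = 0.0142), again close to the shift of the median gene. Clock lies on chromosome 5 from 76209868 to 76304792 on the minus strand. Over the 10 members, the CPM of the genotypes did not overlap for 3 (Arntl, Per3 and Nr1d1), where 57.3% of all genes tested did not.

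**Figure D2:**
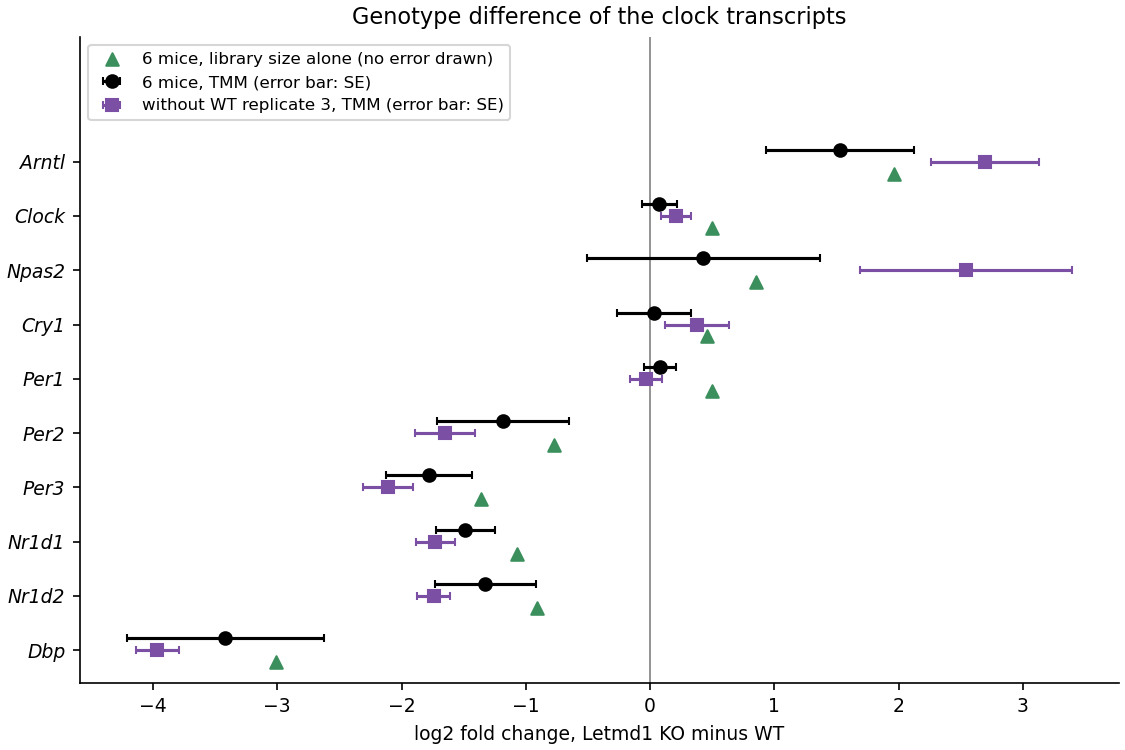
The log2 fold change of each clock gene, Letmd1 KO minus WT, is plotted for all 6 mice (circles), without WT replicate 3 (squares) and with library size alone (triangles), with bars for the standard error where drawn. Per2, Per3, Nr1d1, Nr1d2 and Dbp lie below 0 in all 3 settings, and Npas2 moves from 0.43 to 2.54 when WT replicate 3 is left out.

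Transcripts of opposite phase were next set against each other inside each mouse, because a ratio of counts inside a library needs no scaling. For Arntl over Dbp the log2 ratio was -5.44 and -7.03 in WT replicates 1 and 2, 0.165 in WT replicate 3, and 1.01, 0.0566 and 0.415 in the Letmd1 KO mice. The ratio was low in WT replicates 1 and 2 and near or above 0 in the other 4 mice. For Arntl over Nr1d1 the ratios were -4.94, -6.61 and -2.52 in WT and -0.826, -1.70 and -1.30 in KO mice, without overlap. For Clock over Per2 they were -0.0877, -0.266 and 2.71 in WT and 1.74, 2.20 and 1.25 in KO mice, where WT replicate 3 exceeded every KO mouse.

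Arntl, Npas2 and Clock were each paired with Dbp, Nr1d1, Nr1d2, Per1, Per2 and Per3, which gave 18 pairs. The KO mean was above the WT mean in 18 of 18, though the smallest difference, for Clock over Per1, was 0.0026 on the log2 scale. The pairs reuse the same few genes, so these differences largely restate the fold changes above and are not 18 separate observations. The genotypes did not overlap in 4 (Arntl over Nr1d1, Arntl over Per3, Clock over Nr1d1 and Clock over Per3), all of them pairs with Nr1d1 or Per3. The median over the pairs was -4.63, -5.97 and -0.596 in WT replicates 1 to 3 and -0.573, -0.246 and -1.04 in the KO mice. By this median WT replicate 3 lay within the span of the KO mice, though in single pairs it was inside their range in 6 of 18. No p is given for these ratios, since the genes were proposed with results of these data known.

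**Figure D3:**
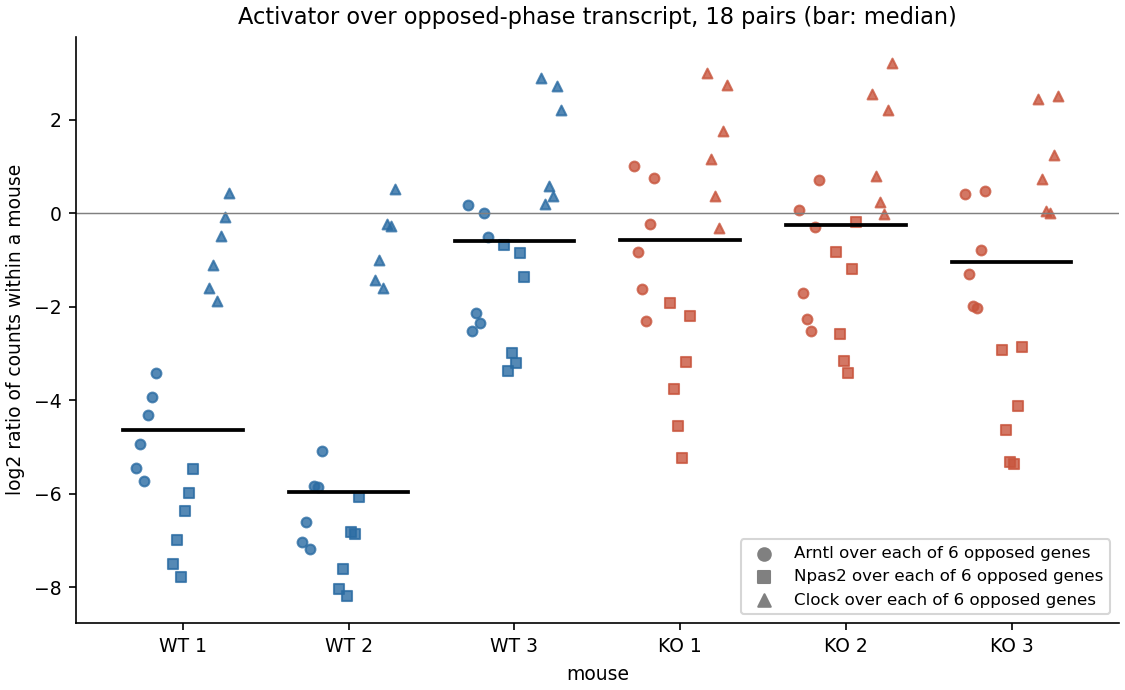
The log2 ratio of counts of an activator (Arntl, circles; Npas2, squares; Clock, triangles) over each of the 6 genes of opposite phase is shown within each mouse, with a black bar at the median of the 18 pairs. The bars of WT replicates 1 and 2 lie at -4.63 and -5.97, and those of WT replicate 3 and the 3 KO mice between -1.04 and -0.246.

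The spread among mice of a genotype was wider for clock genes in WT than in Letmd1 KO BAT, with a median over the members of 0.94 and 0.31 on the log2 scale. The standard deviation of log2 CPM over the WT mice was 2.31 for Dbp, 1.81 for Npas2, 1.60 for Arntl, 1.45 for Per2, 1.11 for Nr1d2 and 0.78 for Per3, and each of these 6 lay at or above the 90th percentile of all genes tested, whose median was 0.21. Dbp ranked 21st among the 11923 tested genes with a mean of at least 20 counts. In the KO mice 1 member, Npas2, was at or above the 90th percentile, with a standard deviation of 1.05. Per2 had 0.45, Cry1 0.36, Dbp 0.34 and Per3 0.33, all above the median of 0.19 over all genes tested, and Nr1d2 had 0.20. The standard deviation was higher in WT than in KO mice for 10 of 10 members, against 54.3% of all genes tested. The difference in spread between the genotypes was not tested, and the mouse farthest from the WT median was replicate 3 for each of these genes.

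**Figure D4:**
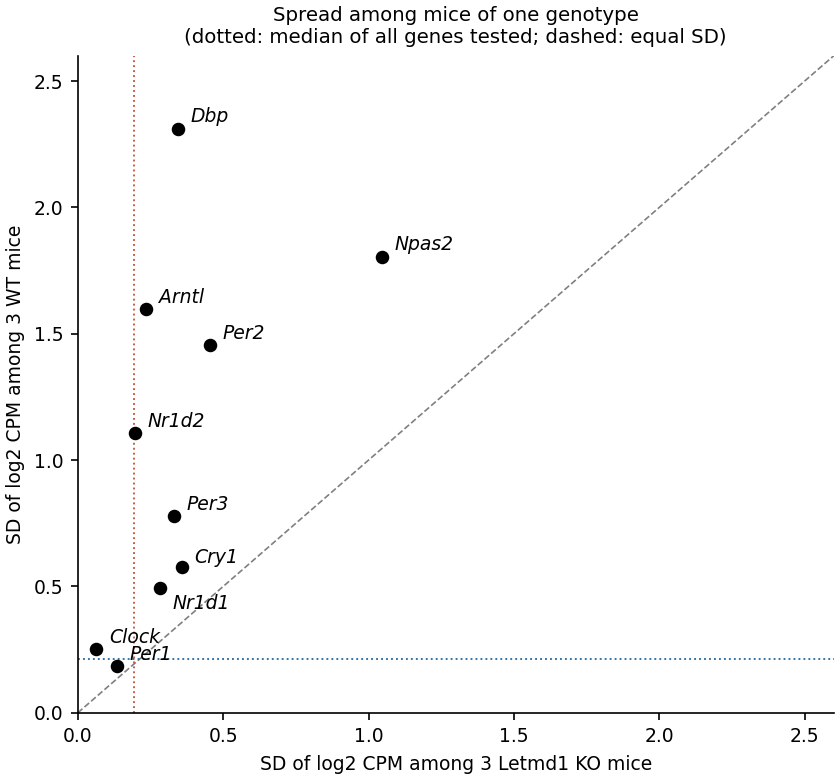
The standard deviation of log2 CPM among the 3 WT mice is plotted against that among the 3 Letmd1 KO mice for each clock gene, with dotted lines at the medians of all genes tested (0.21 and 0.19) and a dashed line of equal values. All 10 genes lie above the dashed line, Dbp farthest at 2.31 against 0.34.

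Over all genes, WT replicate 3 also stood apart from the other WT mice, with a chi-square per degree of freedom of 24.1 and 23.2. The other WT mice differed from each other by 11.7. WT replicate 3 was not alone in this. Letmd1 KO replicate 2 had 22.9 and 34.0 against KO replicates 1 and 3, which differed from each other by 11.5. The brown adipocyte markers of WT replicate 3 summed to 44762 CPM, against 43226 and 39282 CPM in WT replicates 1 and 2. Fabp4 alone made up 30186 CPM of this sum, against 28201 and 25674 CPM in those mice. Its macrophage markers summed to 257 CPM, against 247 and 182, and its muscle markers to 97.8 CPM, against 85.5 and 521. Its erythroid markers (9963 CPM, against 18518 and 14152) and fibroblast markers (2143 CPM, against 2843 and 2686) had the lowest sums of the WT mice. Among the brown adipocyte markers, Dio2 was at 162 CPM, against 840 and 432. Plin1 (475 CPM, against 612 and 542) and Ppargc1a (207 CPM, against 349 and 227) were also lowest of the WT mice there. Ucp1, Cidea and Fabp4 were highest of the WT mice there, and Adipoq and Elovl3 lay between the others. The Letmd1 level of this mouse was 687 CPM, against 610 and 688. Of the 6 glucocorticoid targets, Fkbp5, Tsc22d3, Zbtb16 and Klf9 had their lowest level of all mice in WT replicate 3, and Sgk1 and Cebpd did not. The list summed to 1436, 1325 and 694 CPM in the WT mice and 971, 981 and 1005 CPM in the KO mice, but Klf9 alone made up 967, 877 and 453 CPM of the WT sums. In WT replicate 3, Sgk1 was the highest of all 6 mice and Cebpd lay between the other WT mice. Fkbp5, a chaperone that is induced by glucocorticoids, had 96.2, 95.5 and 9.52 CPM in WT and 43.0, 62.3 and 53.0 CPM in KO mice (adjusted p = 0.661 from edgeR), so that WT replicate 3 was the lowest of all 6 mice. Without it the log2 fold change of Fkbp5 was -0.88 (adjusted p = 0.00189 from edgeR). Leaving out the lowest WT mouse raises the WT mean and narrows the WT spread, so this call is not separate support. Zbtb16, another glucocorticoid target, had 135, 124 and 12.8 CPM in WT and 33.6, 49.6 and 55.7 CPM in KO mice (adjusted p = 0.233). Nr4a1, an early response receptor on the list of cyclic AMP and serum response genes, was at 116 CPM in WT replicate 3 against 7.32 to 28.8 in the other 5 mice, while Junb of the same list was lowest of the WT mice there (11.2 CPM, against 18.1 and 18.9). The part of these genes and cell types in the levels of the clock genes was not tested.

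The other factors of the loop and its outputs were read from the same fit. Of 8 further loop repressors and activators, 4 were lower and none higher, where 22.3% of all genes tested were lower and 23.7% higher. Their median log2 fold change was -0.64, against 0.033 over all genes tested. Without WT replicate 3 the counts were again 4 lower and 0 higher, where 21.4% of all genes were lower and 22.4% higher. Ciart, the repressor with 3 E-boxes in the window printed above, had 15.5, 16.3 and 2.22 CPM in WT and 3.08, 1.85 and 3.47 CPM in KO mice (log2 fold change -1.99, adjusted p = 0.0234 from edgeR), the pattern of Dbp. Bhlhe40, a repressor that binds E-boxes, fell from 38.4 ± 13.9 to 21.5 ± 1.44 CPM (SD, n = 3 each; adjusted p = 0.0209 from edgeR), and Rorb fell from 2.34 ± 0.370 to 0.913 ± 0.228 CPM (SD, n = 3 each; adjusted p = 0.0256 from edgeR). With library size alone, the calls for Bhlhe40 and Rorb were lost (adjusted p = 0.173 and 0.0919). Cry2, Rora, Arntl2 and Bhlhe41 did not pass the threshold, with log2 fold changes between -0.43 and 0.31.

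Of 5 PAR bZip factors and other output genes, 4 were lower and 1 was higher, with a median log2 fold change of -2.19. Over all genes tested, 22.3% were lower and 23.7% higher. Hlf, a close relative of DBP that binds the same D-box, had 76.8, 65.8 and 21.1 CPM in WT and 3.96, 5.43 and 5.59 CPM in KO mice, -3.44 on the log2 scale in edgeR (standard error 0.44, adjusted p = 0.000246). WT replicate 3 was low among the WT mice, yet well above each KO mouse, unlike for Dbp. Tef, the third PAR bZip factor, had 373, 360 and 111 CPM in WT and 40.0, 53.9 and 57.6 CPM in KO mice (log2 fold change -2.48, standard error 0.40, adjusted p = 0.000900). Noct, a phosphatase whose transcript cycles in many tissues and which the files list under an older symbol, had 137, 98.8 and 65.3 CPM in WT and 25.8, 21.4 and 19.1 CPM in KO mice (log2 fold change -2.19, adjusted p = 0.000136). Usp2, a deubiquitinase under clock control, had 204, 212 and 60.1 CPM in WT and 43.6, 27.4 and 48.6 CPM in KO mice (log2 fold change -1.98, adjusted p = 0.00404). For these 4 genes no KO mouse reached the lowest WT mouse, where the genotypes did not overlap in 57.3% of all genes tested.

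Nfil3, which binds the D-box as a repressor and is high when DBP is low, rose from 31.1 ± 5.30 to 44.1 ± 7.63 CPM (SD, n = 3 each; log2 fold change 0.51, adjusted p = 0.0386 from edgeR). The WT mice had 35.1, 25.1 and 33.1 CPM, so WT replicate 3, the WT mouse low in Dbp, was not the highest. The log2 fold change of Nfil3 was 0.54 without WT replicate 3, with an adjusted p of 0.0520.

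**Figure D5:**
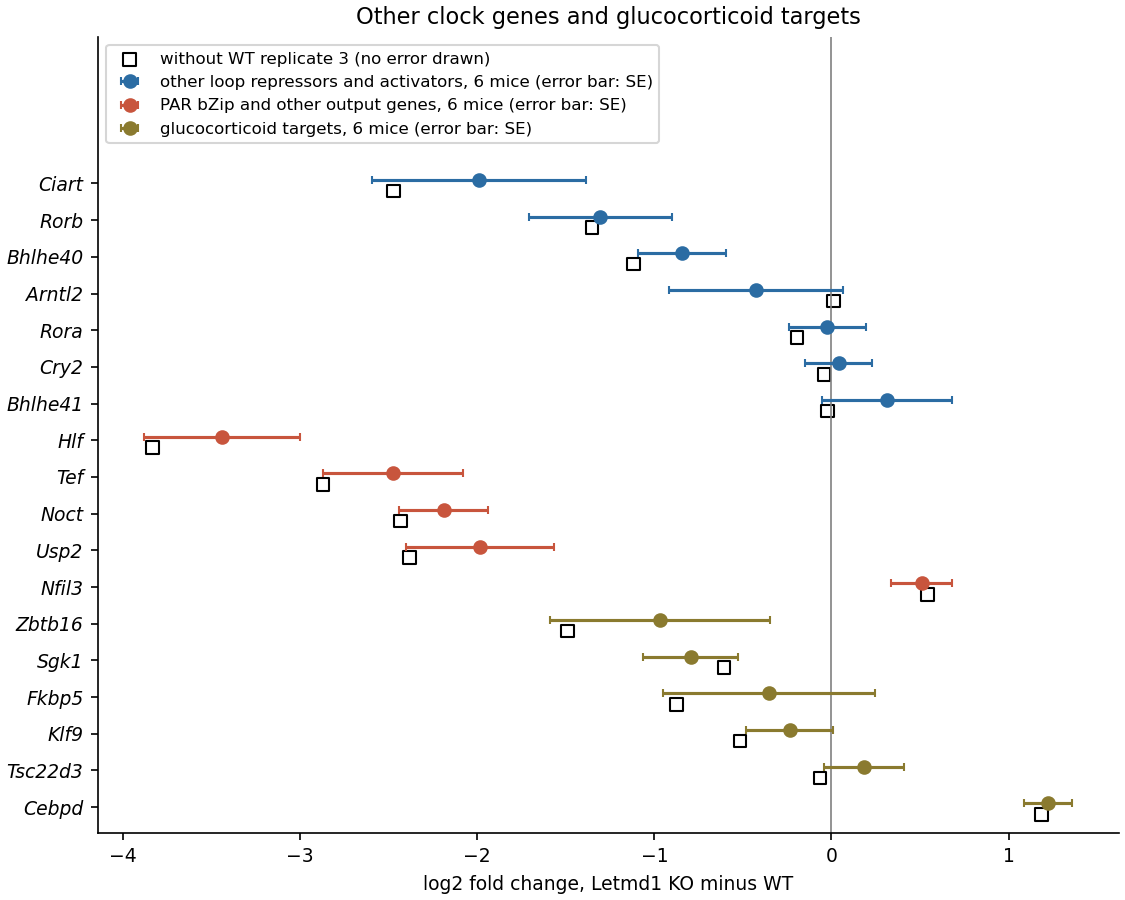
Log2 fold changes, Letmd1 KO minus WT, are shown for further loop genes (blue), output genes (red) and glucocorticoid targets (ochre) with standard errors, and open squares give the value without WT replicate 3. Hlf, Tef, Noct and Usp2 lie between -3.44 and -1.98, and Fkbp5 and Zbtb16 are among the genes that shift most without WT replicate 3.

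Of the kinases, ubiquitin ligases and corepressors that set the speed of the loop, 9 of 10 were tested, with 2 lower and 2 higher. These counts stand beside 22.3% lower and 23.7% higher over all genes tested. The median log2 fold change of the list was -0.023. Gsk3b, a kinase that acts on several clock proteins, had 179, 252 and 418 CPM in WT and 160, 135 and 143 CPM in KO mice (adjusted p = 0.0144 from edgeR), and Hdac3, the deacetylase through which NR1D1 represses, fell from 19.2 ± 0.834 to 13.9 ± 0.806 CPM (SD, n = 3 each; adjusted p = 0.0264 from edgeR). Timeless, a partner of clock and replication proteins, rose by 0.56 on the log2 scale (adjusted p = 0.0363 from edgeR), and without WT replicate 3 the value was 0.49 (adjusted p = 0.0841). The calls for Gsk3b and Hdac3 were lost with library size alone (adjusted p = 0.103 and 0.796).

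Signals that reach the clock from outside were read from 3 further lists, beside 22.3% lower and 23.7% higher over all genes tested. Of 6 glucocorticoid targets 1 was lower and 1 higher: Cebpd rose from 27.7 ± 1.97 to 64.9 ± 8.31 CPM (SD, n = 3 each; adjusted p = 0.000108 from edgeR) and Sgk1 had 92.6, 84.1 and 129 CPM in WT against 67.0, 75.2 and 34.8 CPM in KO mice (adjusted p = 0.0368 from edgeR; 0.100 without WT replicate 3 and 0.241 with library size alone). Of 6 tested cyclic AMP and serum response genes, Fos alone was called, higher in KO mice with 25, 69 and 61 counts against 2, 5 and 8 (adjusted p = 0.00400 from edgeR). Of 7 temperature-linked transcripts 1 was called: Rbm3, which is induced by mild cooling, rose from 15.7 ± 3.78 to 32.4 ± 4.51 CPM (SD, n = 3 each; adjusted p = 0.00223 from edgeR), while its relative Cirbp had 14.8 ± 3.15 and 20.1 ± 5.88 CPM (SD, n = 3 each; adjusted p = 0.172). Without WT replicate 3, the lists of glucocorticoid and of cyclic AMP and serum response genes gave 3 lower and 1 higher, and 0 lower and 2 higher. In that setting 21.4% of all genes were lower and 22.4% higher.

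Among 11913 tested genes outside the members with a mean of at least 20 counts, those whose profile over the 6 mice was closest to that of Dbp were St3gal5, Ciart, Tef, Hlf and Dio2. The root mean square difference from Dbp, after each gene was centred on its mean log2 CPM, lay between 0.73 and 0.91 on the log2 scale, against a median of 1.90 over all these genes. St3gal5, a ganglioside synthase, had 194, 120 and 29.7 CPM in WT and 24.1, 16.3 and 23.6 CPM in KO mice, and Dio2, the deiodinase that activates thyroid hormone in BAT, had 840, 432 and 162 CPM in WT and 92.7, 47.9 and 119 CPM in KO mice. In both, WT replicate 3 was the lowest WT mouse and remained above the KO mice. The genes closest to Arntl were Cdkn2b, Zgrf1, Rnu11, Bbs12 and Cenpm, at 0.36 to 0.45 against a median of 1.39, all of them low genes with no more than 7.14 CPM in any mouse. Among the members themselves, Clock and Per1 had the smallest difference (0.27), followed by Clock and Cry1 (0.31) and Nr1d1 and Per3 (0.32). This measure takes the size of a difference, so genes that vary little come out near each other whatever their direction. WT replicate 3 had the highest Clock level of all 6 mice but the lowest Per1 level.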

How the data were processed

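BAT RNA of 3 WT and 3 Letmd1 KO mice was made into QuantSeq 3′ libraries and sequenced as single-end reads of 75 bases. The authors aligned the reads with Bowtie2 to mm10 (build per the labels), counted unique and multiple alignments with Bedtools and deposited whole-number read counts per gene symbol without normalization. Tool versions, gene annotation and the use of strand are not given in the sources used here. Mice were grouped by the sample titles.

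The test was run in edgeR 4.0.16 under R 4.3.3 (quasi-likelihood, TMM scaling, default filter at 10 counts with a total of at least 15, Benjamini-Hochberg adjustment over all genes tested, threshold 0.05). Alternatives used limma 3.58.1 and DESeq2 1.42.0, library size alone, other filters, a replicate block, a muscle covariate and omission of each mouse. Standard errors were derived from the log2 fold change and the F statistic. Log2 CPM and within-mouse ratios used a prior count of 2. The steps were run on simulated counts in which few genes changed, equally many lower and higher. In these data 46.0% of genes tested were called, a setting that the simulation does not cover. Counts of any pair of mice of a genotype differed beyond sampling noise, with a chi-square of 11.5 to 34.0 per degree of freedom. Floors of 3 counts cover counting error only. Gene positions came from GENCODE M21 on GRCm38 and upstream sequences from RefSeq on GRCm38.p6.

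The members and gene lists were chosen with earlier results of these data known. All members are described with values in every mouse; of the other lists, genes past the threshold are named, with at most 5 others, and some that the counts include are not reported here; the 5 genes nearest in profile to Dbp and to Arntl are named. Sphk2, Thra and Camta1, the listed genes that overlap a member, Nr4a1, Junb, Klf9, Tsc22d3, Fkbp5 and Zbtb16 were picked after their values were seen. Marker lists are given as sums and counts, and single brown adipocyte markers named beside them were picked after their values were seen.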

Additional observations from a re-analysis of the deposited data

How the results depend on the processing

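Of the 10 clock genes, 4 were called with all mice, where 46.0% of all genes tested were called. With the mice omitted singly, the number called was between 3 and 7, the highest without WT replicate 3. The number higher was between 0 and 2. Over all genes these omissions gave 2348 to 2869 lower and 2494 to 2999 higher, of 13064 to 13416 tested. Without WT replicate 3, 21.4% of all genes were lower and 22.4% higher. The number higher went from 0 to 3 with library size alone, which raises the median gene and called 5899 of 12995 genes higher. It went to 1 with no filter, with the replicate block and with the muscle marker level as a covariate. For these last 3 settings the gene was Arntl, and the cause was not tested. With no filter, 3165 of 17694 genes were higher. No pairing by replicate number was seen: same-numbered mice had correlations of deviations from the group mean of 0.069, -0.11 and -0.087. Not every mouse correlated best with its own number, but with 3 mice a genotype this cannot exclude a pairing. With the block, 3 members were lower and 1 was higher, and 4 were called in all. Of 12995 genes tested with the block, 2713 were lower and 2886 higher. Over all genes, the muscle covariate left 1755 lower and 1786 higher calls, against 2896 and 3082.

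Signs changed for genes that passed no threshold with all mice. The log2 fold change of Cry1 was -0.13 under quantile normalization. Leaving out each mouse in turn gave between -0.042 and 0.21 for Clock, between -0.48 and 2.54 for Npas2, between -0.030 and 0.14 for Per1 and between -0.21 and 0.38 for Cry1. Npas2 did not reach a mean of 50 counts and has no value under that filter. The median over the 18 phase-opposed pairs of the KO minus WT difference was 2.15, between 1.51 and 3.64 with a mouse left out. The number of members with a WT spread at or above the 90th percentile was 6 with library size alone as well. With 3 mice a genotype, Npas2 and Arntl in WT rest on few counts, and an exact test on single values could not go below p = 0.1.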
